A study of Homo sapiens with 12 samples.

Results

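Aminoacyl tRNA synthetases are the enzymes that attach each amino acid to its tRNA. The 36 synthetase genes described here were chosen by name among the 62703 gene IDs of the count table: 20 of them encode cytosolic enzymes (names ending in 1, FARSA, FARSB and TARS3) and 16 encode mitochondrial enzymes (names ending in 2). All 36 were found and all 36 passed the filter on low counts. RNA was sequenced from H69, an immortalised line of human cholangiocytes, the epithelial cells of the bile ducts. After 6 h without serum the cells were treated overnight in serum-free medium, in 4 groups of 3 libraries. The first group received TGFβ at 10 ng/mL together with Aramchol at 30 µM, the second received TGFβ alone, the third received Aramchol alone, and the fourth received vehicle. TGFβ is a cytokine that raises matrix production and lowers epithelial genes, and Aramchol joins a bile acid (cholic acid) to a saturated fatty acid (arachidic acid) and is known to reduce the activity of stearoyl-CoA desaturase. All 4 groups are the same cell line, so the values speak for that line in culture. Nothing in the labels states that replicates came from separate cultures, and the p-values therefore cover the spread among these libraries alone, part or all of which may be technical.

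Every codon read by a ribosome depends on a charged tRNA, and human cells keep separate sets of synthetases for the cytosol and for the mitochondria, both encoded in the nucleus. GARS1 and KARS1 encode both forms of their enzyme, so that glycine and lysine have no separate mitochondrial gene. Several cytosolic synthetases sit in the multisynthetase complex, held together by the scaffold proteins AIMP1, AIMP2 and EEF1E1. Many cytosolic synthetase genes are known targets of ATF4, the transcription factor that the integrated stress response induces when amino acids run short or eIF2α is phosphorylated, and ATF4 binds C/EBP-ATF response elements in DNA. The synthetases fall into catalytic classes I and II by the fold of their active site.

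Total counts per library ran from 52279922 to 70339925, and mitochondrially encoded genes took 7.81 to 9.45% of them. Levels below are TMM-scaled CPM, counts relative to library size, and differences are log2 fold changes from edgeR's quasi-likelihood fit with their standard errors. A gene was called at an adjusted p (Benjamini-Hochberg over 21567 tested genes) under 0.05. The cholangiocyte markers KRT7, KRT19, SOX9 and EPCAM were detected in all groups, with KRT7 at 792, 938, 506 and 552 CPM on average in TGFβ + Aramchol, TGFβ, Aramchol and vehicle. KRT19 averaged 15.6, 18.4, 25.8 and 27.4 CPM and EPCAM 3.55, 3.37, 7.38 and 7.76 CPM in the same order. Of 6 tested cholangiocyte markers 2 rose (KRT7 and AQP1) and 4 fell (KRT19, SOX9, EPCAM and TFF2) in TGFβ against vehicle, and 1 rose and 4 fell in TGFβ + Aramchol against vehicle. Of all tested genes 18.9% rose and 18.1% fell in the first of these comparisons, and 18.2% rose and 17% fell in the second. CFTR, SCTR and SPP1 were at or near 0 and were not tested. The summed fibroblast markers, COL1A1 among them, lay between 3278 and 4643 CPM in TGFβ + Aramchol, 4560 and 6102 CPM in TGFβ, 1064 and 1299 CPM in Aramchol, and 1015 and 1220 CPM in vehicle, and all 6 were detected. Whether RNA per cell or the share of a cell type changed cannot be told apart in bulk RNA, and the part of these markers in the results was not tested. The 5 leukocyte markers summed to at most 0.202 CPM. The libraries numbered 3 stood apart on the third principal component in every group, and vehicle replicate 3 also lay nearer to the Aramchol libraries than to the other vehicle libraries on the second.

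TGFβ raised most cytosolic synthetase genes, and most mitochondrial ones were not called. In TGFβ against vehicle, 13 of 20 cytosolic genes rose and none fell, where 18.9% of all tested genes rose and 18.1% fell. Of the 16 mitochondrial genes, 1 rose and 2 fell. The median log2 fold change was 0.27 over the cytosolic genes, 0.03 over the mitochondrial genes and -0.03 over all genes tested. In 14 cytosolic genes the TGFβ libraries all lay above the vehicle libraries, against 23% of all genes. For mitochondrial genes that count was 5, and 4 lay wholly below vehicle, against 23.7% of all genes. With vehicle replicate 3 left out, 13 cytosolic and 3 mitochondrial genes were called.

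**Figure D1:**
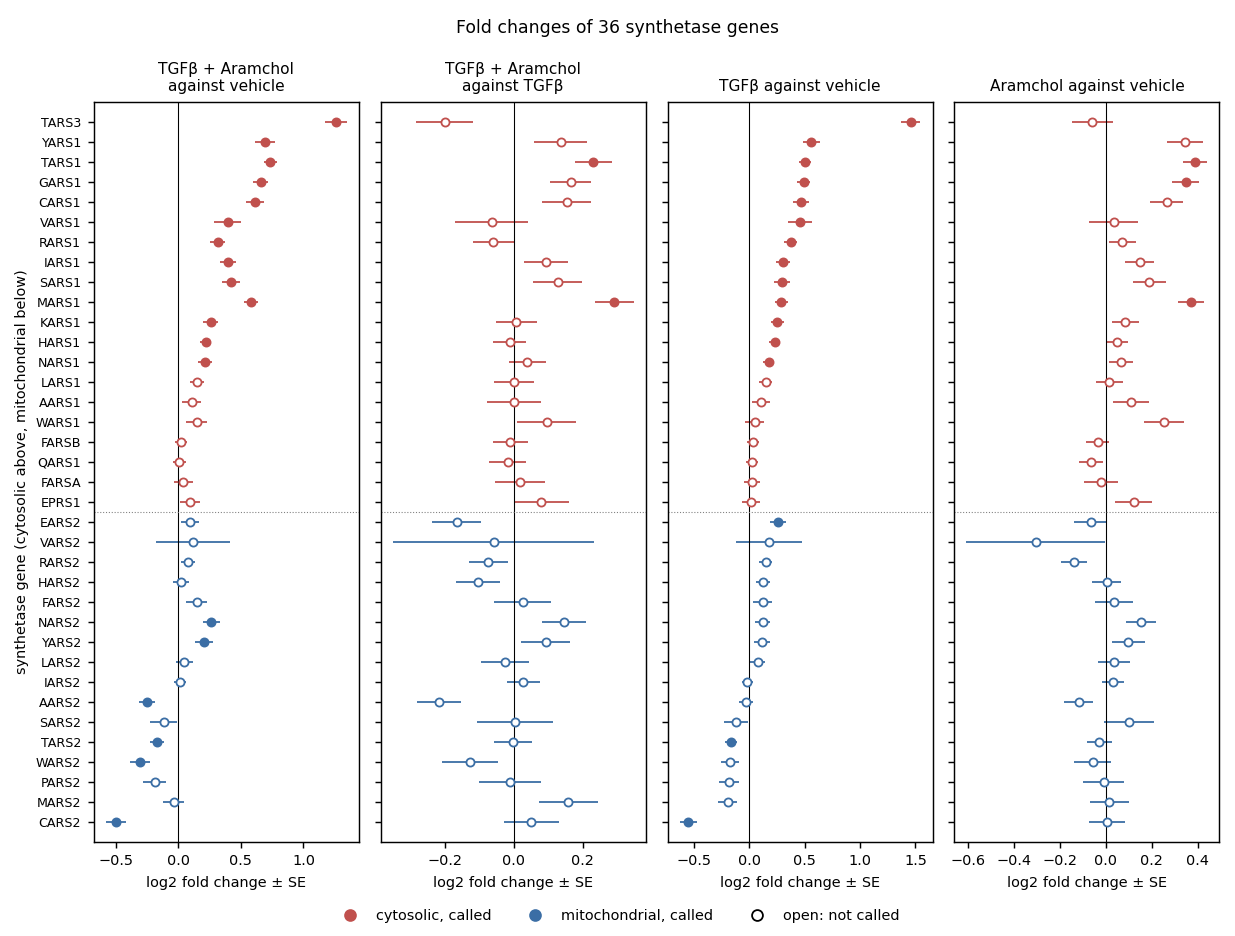
Log2 fold change (x axis, with its standard error) of each of the 36 synthetase genes (y axis, cytosolic above the dotted line and mitochondrial below it) in 4 comparisons. Each panel has its own x scale, and filled points were called at an adjusted p under 0.05. Against vehicle, 13 cytosolic genes were called higher with TGFβ + Aramchol and 13 with TGFβ, and 3 with Aramchol.

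Among all members the widest difference was that of TARS3, a second cytosolic threonyl-tRNA synthetase gene (ENSG00000185418, chr15:101653596-101724473, GRCh38, minus strand). TARS3 had 28.3, 26.9 and 24.6 CPM in TGFβ, against 9.65, 10.00 and 9.39 CPM in vehicle. The TGFβ libraries lay far above the vehicle libraries, with a log2 fold change of 1.46 ± 0.09 (SE, adjusted p = 2.12e-09, edgeR), or 2.75-fold. TARS3 was the only member called at a log2 fold change of 1 or more in this comparison.

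TARS1, the main cytosolic threonyl-tRNA synthetase gene (ENSG00000113407, chr5:33440696-33468091, plus strand), had 166, 167 and 161 CPM in TGFβ, against 118, 122 and 108 CPM in vehicle. Its groups did not overlap, and it rose by a log2 fold change of 0.51 ± 0.05 (adjusted p = 1.92e-06, edgeR). GARS1, the glycyl-tRNA synthetase gene of both compartments (ENSG00000106105, chr7:30580533-30634033, plus strand), had 225, 215 and 236 CPM in TGFβ, against 164, 165 and 151 CPM in vehicle. All 3 TGFβ libraries were again higher, with a log2 fold change of 0.49 ± 0.06 (adjusted p = 7.15e-06, edgeR). YARS1, the tyrosyl-tRNA synthetase gene (ENSG00000134684, chr1:32775237-32818031, minus strand), had 101, 101 and 107 CPM in TGFβ, against 70.2, 74.0 and 65.1 CPM in vehicle. YARS1 rose by a log2 fold change of 0.56 ± 0.08 (adjusted p = 3.31e-05, edgeR), with no overlap between the groups.

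The other 9 cytosolic genes that rose had smaller or more variable differences. CARS1 (cysteine) rose by a log2 fold change of 0.46, RARS1 (arginine) by 0.37, IARS1 (isoleucine) by 0.31, SARS1 (serine) by 0.30, MARS1 (methionine) by 0.29, KARS1 (lysine) by 0.25 and HARS1 (histidine) by 0.23. VARS1 (valine) had 213, 230.1 and 226 CPM in TGFβ, against 187, 177 and 124 CPM in vehicle. Vehicle replicate 3 was the low library, and the log2 fold change of VARS1 was 0.46 with it and 0.30 without it, called both times. NARS1 (asparagine) had the smallest called difference, with a log2 fold change of 0.17 and an adjusted p of 0.0184 (edgeR). That call was lost when TGFβ replicate 1, TGFβ replicate 3 or vehicle replicate 1 was left out, with an adjusted p of up to 0.0709.

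The 7 cytosolic genes that were not called had log2 fold changes of 0.15 for LARS1 (leucine), 0.11 for AARS1 (alanine), 0.05 for WARS1 (tryptophan), 0.03 for QARS1 (glutamine) and 0.02 for EPRS1, which joins the glutamyl and prolyl enzymes in 1 chain. FARSA and FARSB, the subunits of the cytosolic phenylalanyl enzyme, had 0.02 and 0.03. In the multisynthetase complex, 4 of 7 synthetases rose (RARS1, MARS1, IARS1 and KARS1), and 9 of 13 outside it rose, where 18.9% of all tested genes rose. None of the 3 scaffold genes was called by edgeR or by DESeq2, and none had an unadjusted p under 0.05. EEF1E1 had a log2 fold change of 0.12, AIMP2 of 0.10 and AIMP1 of 0.03. By catalytic class, 6 of 10 cytosolic class I genes and 7 of 10 class II genes rose, against the same 18.9% of all tested genes. EPRS1 was counted in class I alone, although its chain holds both a glutamyl and a prolyl enzyme.

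**Figure D2:**
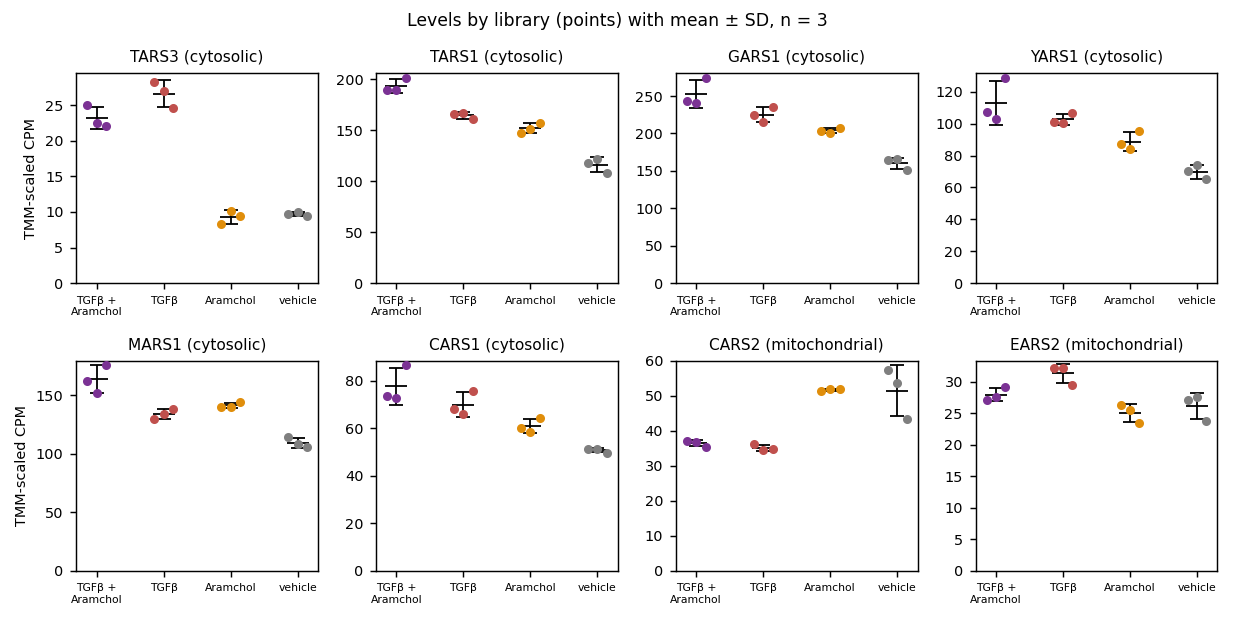
Level (TMM-scaled CPM, y axis from 0) of 8 synthetase genes in each library (points) with the group mean and SD (n = 3), for TGFβ + Aramchol, TGFβ, Aramchol and vehicle from left to right. TARS3 stood at 22.03 to 28.3 CPM in both groups with TGFβ and at 8.27 to 10.1 CPM in both groups without it, and CARS2 was lower in both groups with TGFβ.

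CARS2, the mitochondrial cysteinyl-tRNA synthetase gene (ENSG00000134905, chr13:110641412-110713603, minus strand), moved the other way. It had 36.2, 34.5 and 34.8 CPM in TGFβ, against 57.4, 53.8 and 43.3 CPM in vehicle. Vehicle replicate 3 was again the lowest vehicle library but still lay above all TGFβ libraries. The log2 fold change of CARS2 was -0.55 ± 0.08 (adjusted p = 4.70e-05, edgeR). TARS2, the mitochondrial threonyl enzyme gene, also fell, with 46.95, 48.02 and 50.02 CPM in TGFβ, against 54.8, 51.5 and 56.5 CPM in vehicle. Its log2 fold change was -0.17 ± 0.06 (adjusted p = 0.0262, edgeR), and the call was lost when TGFβ replicate 1 or 2, or vehicle replicate 1 or 3, was left out (adjusted p up to 0.0998). It was also lost with no filter on low counts and with only the groups compared (adjusted p up to 0.135, edgeR).

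EARS2, the mitochondrial glutamyl enzyme gene (ENSG00000103356, chr16:23520754-23557731, minus strand), was the mitochondrial gene that rose. EARS2 had 32.2, 32.2 and 29.5 CPM in TGFβ, against 27.1, 27.6 and 23.8 CPM in vehicle, a log2 fold change of 0.26 ± 0.07 (adjusted p = 0.00910, edgeR). With upper quartile scaling in place of TMM the mitochondrial calls were 1 higher and 4 lower. IARS2 had log2 fold changes of -0.02 in TGFβ against vehicle, 0.03 in Aramchol against vehicle and 0.01 in TGFβ + Aramchol against vehicle, and was not called in any of them. VARS2 had the lowest CPM of the members, at 0.419 to 0.978 over the 12 libraries, and its log2 fold change of 0.18 had a standard error of 0.29. Of its exon bases 63.0% are shared with an overlapping gene on the same strand, so its level is uncertain.

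Pairs were formed for 14 amino acids with a cytosolic and a mitochondrial gene among the members. They make 15 pairs because the cytosolic phenylalanyl enzyme has 2 subunit genes (TARS3 was left out of the pairs). EPRS1 was not paired with EARS2 (glutamate) or PARS2 (proline). With TGFβ the log2 fold change of EPRS1 was 0.02, beside 0.26 for EARS2 and -0.18 for PARS2. In TGFβ against vehicle the cytosolic gene had the higher log2 fold change in 13 of 15 pairs, and the median difference was 0.23. Among these 15 pairs the exceptions were FARSA and FARSB, with 0.02 and 0.03 beside 0.12 for FARS2. In 2 pairs both genes were called in opposite directions. Those were cysteine, with 0.46 for CARS1 and -0.55 for CARS2, and threonine, with 0.51 for TARS1 and -0.17 for TARS2. The call of TARS2 was lost in some settings, as given above. After cysteine and threonine the widest differences were those of methionine (0.29 for MARS1, -0.19 for MARS2, the second not called) and tyrosine (0.56 for YARS1, 0.11 for YARS2, the second not called).

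**Figure D3:**
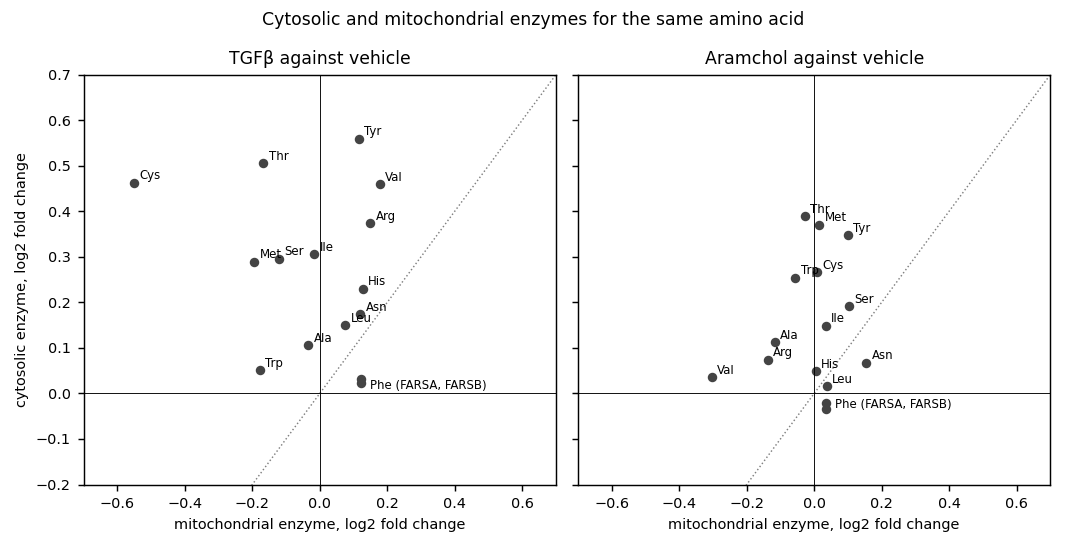
Log2 fold change of the cytosolic gene (y axis) against that of the mitochondrial gene (x axis) for the same amino acid, with TGFβ against vehicle on the left and Aramchol against vehicle on the right. Points above the dotted line of equal change have the higher value in the cytosolic gene: 13 of 15 pairs with TGFβ and 11 of 15 with Aramchol.

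Promoter windows from RefSeq (GRCh38.p14, 250 bases before to 50 after each start) were found for 30 of 36 members. LARS1, TARS3, VARS1, YARS1, AARS2 and VARS2 had none. The windows were searched on both strands for TGATGNAA, whose reverse is TTNCATCA, the core of the C/EBP-ATF response element. It occurred in windows of 7 of 16 cytosolic genes (43.8%) and of 1 of 14 mitochondrial genes (7.14%), against 4.46% of 27305 genes in the table. The 7 cytosolic matches are printed because they include TARS1, GARS1 and MARS1, the 3 genes that rose with Aramchol alone, and the mitochondrial match stands beside them. Each stretch reads 5′ to 3′ on the strand of its gene with the match in capitals, and stretches that reach past the start are 30 bases long.
TARS1: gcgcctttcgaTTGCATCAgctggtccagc
GARS1: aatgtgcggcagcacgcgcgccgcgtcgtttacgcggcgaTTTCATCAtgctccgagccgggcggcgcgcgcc
MARS1: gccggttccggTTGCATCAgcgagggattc
CARS1: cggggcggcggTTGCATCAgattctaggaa
IARS1: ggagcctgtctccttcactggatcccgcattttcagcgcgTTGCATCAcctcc
NARS1: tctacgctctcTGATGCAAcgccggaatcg
AARS1: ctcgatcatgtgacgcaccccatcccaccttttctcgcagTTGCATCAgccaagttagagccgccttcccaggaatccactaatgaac
YARS2: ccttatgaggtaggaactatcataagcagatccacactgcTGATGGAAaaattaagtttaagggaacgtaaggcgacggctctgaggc
The stretches lie at chr5:33440956-33440985 (TARS1, plus strand), chr7:30594805-30594877 (GARS1, plus), chr12:57488053-57488082 (MARS1, plus), chr11:3057407-3057436 (CARS1, minus), chr9:92293698-92293750 (IARS1, minus), chr18:57621804-57621833 (NARS1, minus), chr16:70289646-70289733 (AARS1, minus) and chr12:32756047-32756134 (YARS2, minus).

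In TARS1, MARS1, CARS1, IARS1, GARS1 and NARS1 the match lay within 33 bases of the start, and in AARS1 and YARS2 it lay 187 and 197 bases before it. Of the 7 cytosolic genes with the match 6 rose in TGFβ against vehicle, where 18.9% of all tested genes rose. The median log2 fold change of the 7 was 0.31, and AARS1 was not called. Of the 9 with a window but no match 4 rose, with a median of 0.05. LARS1, TARS3, VARS1 and YARS1 had no window and are in neither count. Of these, TARS3 (1.46), YARS1 (0.56) and VARS1 (0.46) rose, and LARS1 (0.15) was not called. These shares are a description of these windows and not a test, and a match is not a bound site. HARS1 and HARS2 start 85 bases apart on opposite strands and share 184 bases of their windows. With TGFβ, HARS1 rose by a log2 fold change of 0.23, and HARS2 had 0.13 (adjusted p = 0.136, edgeR).

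Aramchol alone raised 3 of 20 cytosolic synthetase genes and none fell, where 0.236% of all tested genes rose and 0.121% fell. The 3 were TARS1, MARS1 and GARS1. No mitochondrial gene was called by edgeR or by DESeq2, and 2 of 16 had an unadjusted p under 0.05. The median log2 fold change was 0.10 over the cytosolic genes and 0.01 over the mitochondrial genes, with -0.01 over all genes. The Aramchol libraries all lay above vehicle in 8 cytosolic genes and 1 mitochondrial gene, against 7.74% of all genes, and all below it in 1 gene of each class, against 8.26% of all genes. TGFβ against vehicle and Aramchol against vehicle share the vehicle libraries.

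TARS1 had 148, 151 and 157 CPM in Aramchol, against 118, 122 and 108 CPM in vehicle. Its log2 fold change was 0.39 ± 0.05 (adjusted p = 0.00518, edgeR), and it stayed called with each library left out in turn (adjusted p up to 0.0357). MARS1, the methionyl-tRNA synthetase gene (ENSG00000166986, chr12:57475445-57517569, plus strand), had 139.8, 140.2 and 144 CPM in Aramchol, against 114, 108 and 106 CPM in vehicle. The groups did not overlap, with a log2 fold change of 0.37 ± 0.06 (adjusted p = 0.0107, edgeR). MARS1 shares 355 exon bases (5.05%) with DDIT3 and 519 (7.38%) with ARHGAP9 on the opposite strand, and no source used here states whether reads were counted by strand. DDIT3 had 6.48, 6.89 and 5.77 CPM in Aramchol, against 5.75, 5.52 and 4.46 CPM in vehicle (adjusted p = 0.425, edgeR).

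GARS1 had 203, 201 and 208 CPM in Aramchol, against 164, 165 and 151 CPM in vehicle, a log2 fold change of 0.35 ± 0.06 (adjusted p = 0.0231, edgeR). YARS1 followed with 87.0, 83.9 and 95.3 CPM in Aramchol, against 70.2, 74.0 and 65.1 CPM in vehicle. The YARS1 groups did not overlap, but its log2 fold change of 0.35 ± 0.08 was not called (adjusted p = 0.0810, edgeR). CARS1 had a log2 fold change of 0.27 and WARS1 of 0.25, neither called. TARS3, the gene with the widest TGFβ difference, had 8.27, 10.1 and 9.47 CPM in Aramchol, which overlapped the 9.65, 10.00 and 9.39 CPM of vehicle.

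Leaving out Aramchol replicate 1, Aramchol replicate 2 or vehicle replicate 2 ended the call of MARS1 (adjusted p up to 0.0652), and any of these or vehicle replicate 1 ended that of GARS1 (adjusted p up to 0.111). With only the Aramchol and vehicle libraries in the fit none of the 3 was called, and TARS1 then had an adjusted p of 0.104. Vehicle replicate 3 had the lowest mean log2 CPM over the cytosolic genes (-0.28, beside -0.17 and -0.16 in vehicle replicates 1 and 2, centred on all 12 libraries). Without it the log2 fold changes were 0.34 for TARS1, 0.35 for MARS1 and 0.31 for GARS1, all still called. Over all genes 222 then rose and 389 fell of 22263 tested, beside 51 and 26 of 21567 with it. With the libraries numbered 1 and 2 alone, YARS1 had 0.25 and was called, beside 0.35 as reported. DESeq2 called 5 cytosolic genes, adding YARS1 (adjusted p = 0.00616) and CARS1 (adjusted p = 0.0382). Both were also called by edgeR with a term for the libraries numbered 3 (adjusted p = 0.00884 for YARS1 and 0.0131 for CARS1), so their calls depended on the setting.

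Of the mitochondrial genes, RARS2 (arginine) and NARS2 (asparagine) had the smallest p with Aramchol. RARS2 had 55.5, 55.6 and 59.0 CPM in Aramchol, against 61.8, 66.6 and 58.8 CPM in vehicle, and the groups overlapped (log2 fold change -0.14 ± 0.06, adjusted p = 0.364, edgeR). NARS2 had 17.6, 17.4 and 17.7 CPM in Aramchol, against 15.6, 15.4 and 16.3 CPM in vehicle. These groups did not overlap, but the difference of 0.15 ± 0.06 on the log2 scale was not called (adjusted p = 0.367, edgeR). The cytosolic gene had the higher log2 fold change in 11 of 15 pairs, with a median difference of 0.21. Of the 7 cytosolic genes with the promoter match 3 rose with Aramchol (median log2 fold change 0.27). Of the 9 with a window but no match 0 rose (median 0.07). LARS1, TARS3, VARS1 and YARS1, which had no window, are in neither count. Of all tested genes 0.236% rose in this comparison.

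Adding Aramchol to TGFβ raised MARS1 and TARS1 further. In TGFβ + Aramchol against TGFβ these were the 2 cytosolic genes called, both higher, where 0.89% of all tested genes rose and 1.36% fell. MARS1 had 162, 152 and 176 CPM in TGFβ + Aramchol, against 129, 134 and 138 CPM in TGFβ. Its log2 fold change was 0.29 ± 0.06 (adjusted p = 0.0168, edgeR), with no overlap. DDIT3, on the opposite strand, had 7.30, 6.65 and 5.33 CPM in TGFβ + Aramchol, against 5.82, 6.23 and 5.29 CPM in TGFβ. TARS1 had 189.6, 189 and 201 CPM in TGFβ + Aramchol, against 166, 167 and 161 CPM in TGFβ. The log2 fold change of TARS1 was 0.23 ± 0.05 (adjusted p = 0.0375, edgeR).

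Leaving out single libraries ended both calls. That of MARS1 was lost without TGFβ + Aramchol replicate 1, TGFβ replicate 1 or TGFβ replicate 2 (adjusted p up to 0.0783). That of TARS1 was lost when any of the 6 libraries compared, or Aramchol replicate 1 or 2, was left out (adjusted p up to 0.157).

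GARS1 had 243, 240.4 and 274 CPM in TGFβ + Aramchol, against 225, 215 and 236 CPM in TGFβ, and its log2 fold change of 0.17 ± 0.06 was not called (adjusted p = 0.162, edgeR). TARS3 had 24.96, 22.51 and 22.03 CPM in TGFβ + Aramchol, against 28.3, 26.9 and 24.6 CPM in TGFβ. These groups overlapped, and the log2 fold change of -0.20 ± 0.08 was not called (adjusted p = 0.230, edgeR). No mitochondrial gene was called by edgeR, 3 had an unadjusted p under 0.05, and DESeq2 called 1, AARS2, as lower. AARS2, the mitochondrial alanyl enzyme gene, had 31.0, 31.5 and 35.7 CPM in TGFβ + Aramchol, against 35.9, 39.3 and 39.1 CPM in TGFβ. The highest library with Aramchol lay just under the lowest without it (log2 fold change -0.22 ± 0.06, adjusted p = 0.0902, edgeR). EARS2, which had risen with TGFβ, had 27.1, 27.6 and 29.1 CPM in TGFβ + Aramchol, against 32.2, 32.2 and 29.5 CPM in TGFβ (log2 fold change -0.17 ± 0.07, adjusted p = 0.247, edgeR).

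With both treatments the cytosolic genes stood at their highest on average. Each library's mean log2 CPM over the 20 cytosolic genes, centred on all 12 libraries, was 0.16 ± 0.07 in TGFβ + Aramchol, 0.11 ± 0.03 in TGFβ, -0.07 ± 0.02 in Aramchol and -0.20 ± 0.07 in vehicle (SD, n = 3 each). The libraries of TGFβ + Aramchol and TGFβ overlapped in this mean, and both lay above all Aramchol libraries, which lay above all vehicle libraries. The same mean over the 16 mitochondrial genes was -0.02 ± 0.04, -0.00 ± 0.02, 0.00 ± 0.02 and 0.01 ± 0.05 in that order of groups, and all 4 groups overlapped. As a share of all counts, the cytosolic genes took 0.315 ± 0.0146% in TGFβ + Aramchol, 0.292 ± 0.00625% in TGFβ, 0.303 ± 0.00592% in Aramchol and 0.277 ± 0.00563% in vehicle. The mitochondrial genes took 0.0544 ± 0.000172%, 0.0536 ± 0.000937%, 0.0610 ± 0.000870% and 0.0615 ± 0.00104% in the same order. These shares weight genes by their counts and are not scaled by TMM, and they order the groups otherwise than the means above. The mitochondrial share was 0.0526 to 0.0546% in libraries with TGFβ and 0.0600 to 0.0623% in those without it, with no overlap. On average the cytosolic share was higher in Aramchol than in TGFβ, but single libraries overlapped. Why the measures differ was not tested.

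**Figure D4:**
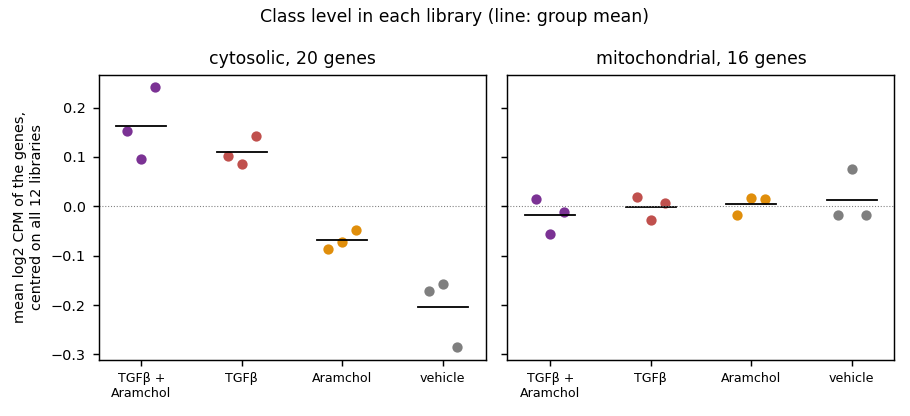
Mean log2 CPM over the cytosolic (left) and mitochondrial (right) synthetase genes in each library (points, y axis, centred on the mean of all 12 libraries), with the group mean as a line. Cytosolic means ran from 0.16 in TGFβ + Aramchol to -0.20 in vehicle, and the mitochondrial means stayed between -0.02 and 0.01.

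Against vehicle, TGFβ + Aramchol raised 13 cytosolic genes and lowered none, where 18.2% of all tested genes rose and 17% fell. All 13 stayed called with each library left out in turn. The log2 fold change was 1.26 for TARS3, 0.74 for TARS1, 0.69 for YARS1, 0.66 for GARS1, 0.62 for CARS1 and 0.58 for MARS1. SARS1, IARS1, VARS1, RARS1, KARS1, HARS1 and NARS1 had log2 fold changes of 0.21 to 0.42, and that of VARS1 was 0.40 with vehicle replicate 3 and 0.23 without it. Among mitochondrial genes, NARS2 (0.27) and YARS2 (0.21) rose, and CARS2 (-0.50), WARS2 (-0.30), AARS2 (-0.25) and TARS2 (-0.17) fell. The call of YARS2 was lost without TGFβ + Aramchol replicate 1 or 2 or vehicle replicate 2 or 3 (adjusted p up to 0.113, edgeR), and that of TARS2 without any TGFβ + Aramchol library or vehicle replicate 1 or 3 (adjusted p up to 0.0771, edgeR). Both were also lost with no filter on low counts, with the libraries numbered 1 and 2 alone and with only the groups compared, and YARS2 with upper quartile scaling (adjusted p up to 0.109 for YARS2 and 0.0974 for TARS2, edgeR). The cytosolic gene had the higher value in 12 of 15 pairs, with a median difference of 0.36. Cysteine and threonine were the 2 pairs whose genes were called in opposite directions. In the asparagine and tyrosine pairs both genes were called higher. This comparison shares its vehicle libraries with those of TGFβ alone and Aramchol alone.

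Within Aramchol-treated cells, TGFβ + Aramchol against Aramchol raised 12 cytosolic genes and lowered none, where 16% of all tested genes rose and 14.2% fell. TARS3 again had the widest difference, with 24.96, 22.51 and 22.03 CPM in TGFβ + Aramchol, against 8.27, 10.1 and 9.47 CPM in Aramchol (log2 fold change 1.32 ± 0.09, adjusted p = 1.01e-08, edgeR). NARS1, which rose with TGFβ alone, was not called here (0.15, adjusted p = 0.0523, edgeR). RARS2 rose (0.21), and CARS2 (-0.51) and WARS2 (-0.25) fell. The call of WARS2 was lost without TGFβ + Aramchol replicate 2 or any Aramchol library (adjusted p up to 0.109, edgeR) and with no filter on low counts (adjusted p = 0.0581, edgeR). CARS2 had 37.1, 36.8 and 35.4 CPM in TGFβ + Aramchol, against 51.3, 52.0 and 51.8 CPM in Aramchol. The cytosolic count was 8 without TGFβ + Aramchol replicate 3, and the log2 fold change of SARS1 was then 0.15 and not called (adjusted p = 0.131, edgeR), beside 0.23 with it. MARS1, HARS1 and KARS1 also lost their calls without that library. Leaving out other single libraries ended the calls of HARS1 (without Aramchol replicate 2), VARS1 (without TGFβ + Aramchol replicate 1 or Aramchol replicate 1 or 3), SARS1 (without Aramchol replicate 1 or 2) and KARS1 (without TGFβ + Aramchol replicate 1, TGFβ replicate 2 or any Aramchol library), with adjusted p up to 0.171 (edgeR). KARS1 was also not called with upper quartile scaling (adjusted p = 0.0714, edgeR).

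No synthetase gene showed a called departure from additivity. The interaction, the Aramchol difference with TGFβ minus that without TGFβ, was called for none of the 36 members by edgeR or DESeq2, where 0.0139% of all tested genes were called in either direction. The lack of a call with 3 libraries per group does not show that the effects add. The interaction was above 0 in 3 of 20 cytosolic and 5 of 16 mitochondrial genes. Its median was -0.08 over the cytosolic genes, -0.01 over the mitochondrial genes and 0.01 over all genes tested. GARS1 was the only member with an unadjusted p under 0.05, with an interaction of -0.18 ± 0.08 (adjusted p = 0.948, edgeR). TARS1 had -0.16 ± 0.08, YARS1 had -0.21 ± 0.11 and RARS1 had -0.13 ± 0.09. YARS1 had 107, 103 and 128 CPM in TGFβ + Aramchol, with TGFβ + Aramchol replicate 3 the highest of all 12 libraries. RARS1 had 161, 145 and 158 CPM in TGFβ + Aramchol, 171, 154 and 159 CPM in TGFβ, 135, 131 and 127 CPM in Aramchol, and 123, 134 and 118 CPM in vehicle. All RARS1 values with TGFβ lay above all values without it, and the groups with and without Aramchol overlapped.

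The mitochondrial members with the smallest interaction p were HARS2 and MARS2. HARS2 had 43.1, 41.7 and 46.5 CPM in TGFβ + Aramchol, 46.0, 46.0 and 49.0 CPM in TGFβ, 41.2, 44.3 and 43.9 CPM in Aramchol, and 39.8, 45.8 and 43.5 CPM in vehicle. MARS2 had 13.6, 12.9 and 12.3 CPM in TGFβ + Aramchol, 11.9, 12.3 and 10.6 CPM in TGFβ, 14.1, 13.3 and 12.8 CPM in Aramchol, and 12.9, 14.4 and 12.5 CPM in vehicle. Their interactions were -0.11 ± 0.09 and 0.14 ± 0.12 (SE), with adjusted p = 0.999 for both (edgeR).

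Other genes of amino acid supply and translation were counted beside the synthetases. Of 18 regulators of the integrated stress response, 8 rose and 2 fell with TGFβ, where 18.9% of all tested genes rose and 18.1% fell. Those with the smallest p were NUPR1 (log2 fold change 1.30), ATF3 (0.50) and ATF4 (0.35). With Aramchol alone 3 of 18 rose, which were ATF4 (0.43), CEBPG (0.48) and TRIB3 (0.55), and in TGFβ + Aramchol against TGFβ 3 of 18 rose, which were ATF4 (0.35), CEBPG (0.47) and TRIB3 (0.45). Of all tested genes 0.236% rose in the first of these comparisons and 0.89% in the second. ATF4 had 303, 278 and 299 CPM in TGFβ + Aramchol, 229.9, 228 and 231 CPM in TGFβ, 243, 238 and 249 CPM in Aramchol, and 186, 187 and 167 CPM in vehicle. CEBPG and TRIB3 were named after their values were seen.

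A list of 22 amino acid supply genes of the ATF4 program held mostly transporter and synthesis genes, with CHAC1 among them. Of these 22 genes 12 rose and 3 fell with TGFβ, against 18.9% and 18.1% of all tested genes. Those with the smallest p were the transporters SLC7A5 (2.16) and SLC7A1 (0.90) and the proline synthesis gene ALDH18A1 (0.41). With Aramchol alone 8 of 22 rose, against 0.236% of all tested genes, and 7 rose in TGFβ + Aramchol against TGFβ, against 0.89% of all tested genes, with none lower in either. A list of cytosolic tRNA and translation genes held XPOT, elongation factors, DTD1, DTD2, AARSD1 and EIF4EBP1. Of its 10 tested genes 5 rose and 1 fell with TGFβ, against the same 18.9% and 18.1%. Those with the smallest p were the tRNA exporter XPOT (0.32), the translation inhibitor EIF4EBP1 (0.45) and the elongation factor subunit EEF1B2 (0.37). XPOT was the only gene of that list called with Aramchol, where 0.236% of all tested genes rose (0.24, adjusted p = 0.0484, edgeR).

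Genes of mitochondrial translation were counted in the same way. Of 13 mitochondrial translation factors none was called with TGFβ by edgeR or DESeq2, and 1 had an unadjusted p under 0.05. TUFM, the mitochondrial elongation factor, had a log2 fold change of 0.15 and MTIF3, an initiation factor, of -0.12. Of 28 mitochondrial ribosomal protein genes 5 rose and 1 fell with TGFβ, against 18.9% and 18.1% of all tested genes, so that the share that rose was near that of all genes. Those with the smallest p were MRPL10 (-0.46), MRPL37 (0.40) and MRPL3 (0.30). With Aramchol alone none of these 13 or 28 genes was called by either tool, and 2 of 13 and 0 of 28 had an unadjusted p under 0.05.

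Per exon length, the cytosolic genes lay between 2.17 ± 0.0680 RPKM for TARS3 and 55.0 ± 1.93 RPKM for NARS1 in vehicle (SD, n = 3). The mitochondrial genes lay between 0.115 ± 0.0450 RPKM for VARS2 and 41.6 ± 1.56 RPKM for IARS2. After NARS1 came QARS1 with 49.7 ± 2.82 RPKM, IARS2, and FARSA with 37.4 ± 4.53 RPKM, and IARS2 and FARSA did not differ beyond their spread. TARS1 had 27.3 ± 1.74 RPKM in vehicle and so stood well above TARS3, which encodes an enzyme for the same amino acid. The exon lengths count all exons of a gene in the annotation, so genes with many isoforms have a low RPKM by that measure. Of the exon bases of VARS2 63.0%, and of SARS2 48.2%, are shared with overlapping genes on the same strand, so their levels are uncertain.

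**Figure D5:**
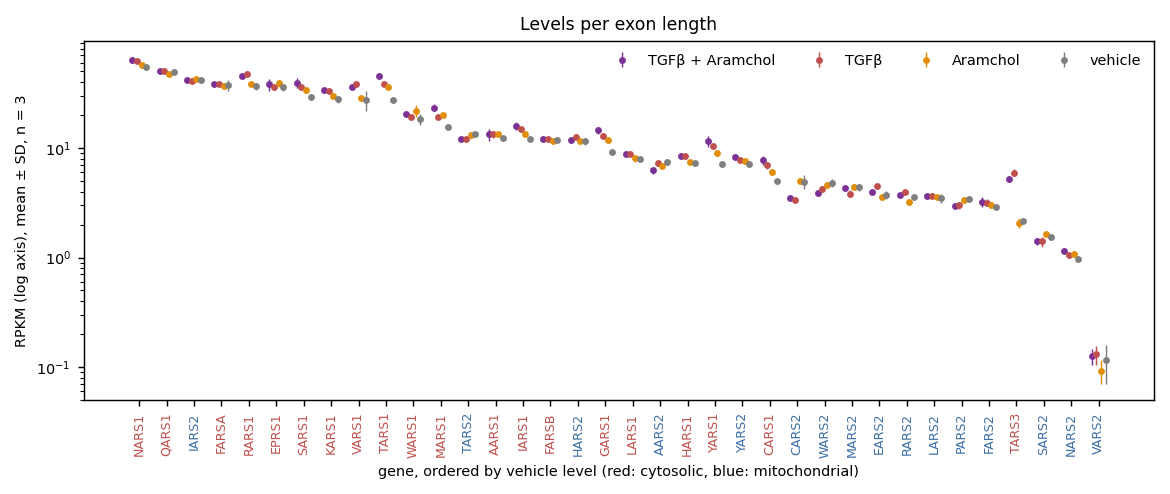
Level per exon length (RPKM, log y axis, mean and SD of 3 libraries) of the 36 synthetase genes in order of their vehicle level, for TGFβ + Aramchol, TGFβ, Aramchol and vehicle. TARS3 is the gene whose groups with and without TGFβ are farthest apart, and IARS2 is the mitochondrial gene with the highest level.

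Across the 12 libraries, the tested genes outside the members whose log2 CPM followed the cytosolic mean most closely were SLC1A5 (Pearson r 0.986), AVEN (0.981), CUL1 (0.980), NUPR1 (0.978) and PKM (0.976). These values describe 12 libraries that share 4 treatments, and genes that differ between the same groups have a high r. Among the members YARS1 (0.977), IARS1 (0.972), CARS1 (0.968) and GARS1 (0.967) followed the cytosolic mean, of which each is a part. WARS1 (0.23), EPRS1 (0.26) and FARSA (0.36) followed it least among cytosolic genes. TARS2 (-0.81), CARS2 (-0.78) and PARS2 (-0.74) had the lowest values of the mitochondrial genes, and NARS2 (0.75) and YARS2 (0.71) the highest.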

How the data were processed

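Per the labels' protocols, RNA of the 12 H69 samples (4 groups of 3) came from a Trizol extraction and was prepared for sequencing with IDT's 2S Plus kit. The authors aligned reads to GRCh38 with STAR 2.7.9a and counted them per gene with featureCounts, per the submitters' processing notes. The deposited table holds whole-number counts and an exon length per gene, another deposited value used here only for RPKM. Strand setting and annotation release were not given in the sources used here. Of 62703 gene IDs 62625 had a symbol, 20616 had no count, and 21567 passed filterByExpr.

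TMM factors were 0.930 to 1.09. A quasi-likelihood model of edgeR 4.0.16 (R 4.3.3) gave each of the 4 groups a mean, and 6 contrasts were tested, called at an adjusted p under 0.05 over all tested genes. The biological coefficient of variation was 8.90%. Counting error is the least error of a count, since reads carried no molecular identifiers. The procedure was tested on simulated data. No 2 libraries of a group were duplicates.

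The members and all lists (synthetase classes, multisynthetase complex, stress response regulators, amino acid supply, cytosolic and mitochondrial translation, cell type markers) were chosen with earlier results of these data known. By rule, every called member may be named, and values in every library are given for the 4 cytosolic and 2 mitochondrial members with the smallest p in 4 contrasts (TGFβ and Aramchol each against vehicle, Aramchol added to TGFβ, and the interaction), and for called members with an absolute log2 fold change of at least 1. From other lists the 3 genes with the smallest p with TGFβ are named. A further 5 genes are those closest to the cytosolic mean. Library values of CARS1, VARS1, TARS2, ATF4 and DDIT3 were added after their values were seen. As alternatives, scaling was by upper quartile or RLE, the filter was dropped or made stricter (at least 10 counts, mean CPM of at least 1), DESeq2 1.42.0 replaced edgeR, the model took replicate number as a block or marked libraries numbered 3, and the fit used only libraries numbered 1 and 2, only the groups compared, or all but 1 library. Promoter sequences are from RefSeq (GRCh38.p14). Tables and figures were made with Python 3.11.15, pandas 2.3.3, numpy 2.4.6 and matplotlib 3.10.9.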

Additional observations from a re-analysis of the deposited data

How the results depend on the processing

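Calls of cytosolic genes with TGFβ numbered 12 to 14 (13 as reported) under every alternative, and the interaction had none under any. For mitochondrial genes, TGFβ against vehicle gave 5 calls with upper quartile scaling (1 higher, 4 lower), with the replicate block and with a term for the libraries numbered 3, beside 3 as reported. TGFβ + Aramchol against Aramchol gave 5 with that term, beside 3. The Aramchol calls depended most on the settings. For cytosolic genes in Aramchol against vehicle, 3 calls as reported became 6 with no filter, with the term for the libraries numbered 3 and with the libraries numbered 1 and 2 alone, 5 with DESeq2 and with the replicate block, and 0 with only the groups compared. For mitochondrial genes, that comparison gave 1 call (RARS2, lower) with the libraries numbered 1 and 2. TGFβ + Aramchol against TGFβ gave 1 mitochondrial call (AARS2, lower) with DESeq2, the replicate block or the term for the libraries numbered 3, and 2 with the libraries numbered 1 and 2, beside 0 as reported. The cause was not tested.

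With each library left out, cytosolic and mitochondrial calls numbered 12 to 14 and 2 to 4 in TGFβ against vehicle, 1 to 4 and 0 in Aramchol against vehicle, 0 to 2 and 0 to 1 in TGFβ + Aramchol against TGFβ, 8 to 13 and 2 to 4 in TGFβ + Aramchol against Aramchol, and 13 to 14 and 4 to 6 in TGFβ + Aramchol against vehicle. In Aramchol against vehicle the count was 1 without Aramchol replicate 1, Aramchol replicate 2 or vehicle replicate 2, and in TGFβ + Aramchol against TGFβ it was 0 without TGFβ + Aramchol replicate 1, TGFβ replicate 1 or TGFβ replicate 2. Over 68 single gene results and 1422 alternative values, 1341 kept direction and call, 68 lost the call, 13 gained it and 0 changed direction.

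The replicate numbers were not taken to pair the samples, since the labels do not say what they mark. Deviations of libraries of the same number correlated at 0.00739 to 0.221 (7 of 18 pairs over 0.1), those of the libraries numbered 3 at 0.111 to 0.221, and those of different numbers at -0.146 to 0.0907 (0 of 36 over 0.1). Libraries of the same number, those numbered 3 most of all, thus shared some deviation that the main fit leaves out. With the replicate block YARS1 and CARS1 were called in Aramchol against vehicle (adjusted p = 0.0157 and 0.0203, edgeR). Over all genes the replicate block gave 464 calls in Aramchol against vehicle, beside 77, and 1519 in TGFβ + Aramchol against TGFβ, beside 486. Those counts were 531 and 1278 with no filter, 399 and 1042 with DESeq2, 538 and 1683 with the term for the libraries numbered 3, 1544 and 1853 with the libraries numbered 1 and 2, and 5 and 960 with only the groups compared. Without vehicle replicate 3 they were 611 and 1209. Among stress response regulators DESeq2 called 7 with Aramchol alone, beside 3, and 5 in TGFβ + Aramchol against TGFβ, beside 3, and among amino acid supply genes 14 with Aramchol alone, beside 8. Upper quartile scaling gave 37 higher and 38 lower in Aramchol against vehicle, beside 51 and 26. Genes higher in the libraries numbered 3 included CARS1, EPRS1 and SARS1, and WARS1 and LARS2 were lower (5.29% and 7.34% of all genes). At 0.419 to 0.978 CPM, VARS2 allowed only wide differences to be seen.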
